A study of Mus musculus with 32 samples.

Results

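The genes described here are 43 mouse genes of DNA replication, out of 55401 genes listed in each expression table. They were taken by name, for their place in the replication machinery, and each one has a row in all 5 tables. They were measured by RNA sequencing of total RNA from 32 libraries in 16 groups of 2. Most libraries came from mouse embryonic fibroblasts of the OG2X129 line kept in a chemical reprogramming medium, the ciPSC medium, which turns fibroblasts toward pluripotency with small molecules instead of introduced transcription factor genes.

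All reprogramming groups shared that medium, with serum replacement, serum, bFGF, VPA, CHIR99021, 616452, Parnate, Forskolin, AM580, EPZ004777 and vitamin C. AM580, an agonist of retinoic acid receptors, was thus present in the control groups too. In the first table the added agent was CD (CD3254, which the series title ties to the retinoid X receptor RXRα) and the control was DMSO, its solvent. The second table compared overexpression of Rxra (Rxra-OE) with its control, labelled WT OE (CTR). The third compared a short hairpin RNA against Exosc3, a subunit of the RNA exosome (shE3), with the group labelled WT shRNA (shCTR). The fourth followed CD and DMSO cultures at 0, 4 and 8 h of actinomycin D, which blocks transcription. The fifth held induced pluripotent stem cells (iPSC) derived with CD (CD-iPSC) or with DMSO (DMSO-iPSC, spelled DMSP in the titles), fibroblasts (MEF) and R1 embryonic stem cells of blastocyst origin. The MEF libraries carry the labels WT shRNA and ciPSC reprogramming although they stand as the fibroblast group. The labels name no day of reprogramming, no promoter for the overexpression and no number of hairpins or iPSC clones. Nothing in them says that the 2 libraries of a group came from separate cultures, and the p-values therefore reflect the spread between these samples alone, which may be technical.

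Replication starts at origins, where the origin recognition complex (Orc1, Orc6), Cdc6 and Cdt1 load the ring-shaped MCM2-7 helicase in G1 phase, and where geminin (Gmnn) holds Cdt1 back once S phase has begun. Cdc45, the GINS complex and Mcm10 then switch the helicase on. DNA polymerase alpha with primase (Pola1, Pola2, Prim1, Prim2) lays down primers, and polymerases delta and epsilon extend them, held on DNA by the sliding clamp PCNA, which the RFC complex loads. RPA covers single-stranded DNA, Fen1 and Lig1 process and join Okazaki fragments, and ribonucleotide reductase (Rrm1, Rrm2), thymidylate synthase (Tyms) and dUTPase (Dut) supply and guard the nucleotide pool. Cyclin E (Ccne1, Ccne2) with CDK2 drives entry into S phase. Many of these genes are known targets of E2F transcription factors, and fibroblasts that resume division and pluripotent cells, which cycle rapidly, are known for high levels of their RNA.

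Promoter sequences are shown for 6 members that recur in the results. Mcm5, Mcm6 and Cdt1 were high with CD and Rxra-OE and low with shE3. Cdc6 was among the RNAs lost first under actinomycin D, and Rpa1 and Dut departed from the other members. Each sequence is the RefSeq window of the GRCm38.p6 assembly from 250 bases before to 50 bases after the RefSeq start. It is written 5′ to 3′ on the strand of the gene, and capitals mark E2F-type words. The Cdc6 and Dut windows lie inside those genes as the GENCODE annotation draws them, with starts at chr11:98907801 and chr2:125247190.
Mcm5 (chr8:75109259-75109558, plus strand): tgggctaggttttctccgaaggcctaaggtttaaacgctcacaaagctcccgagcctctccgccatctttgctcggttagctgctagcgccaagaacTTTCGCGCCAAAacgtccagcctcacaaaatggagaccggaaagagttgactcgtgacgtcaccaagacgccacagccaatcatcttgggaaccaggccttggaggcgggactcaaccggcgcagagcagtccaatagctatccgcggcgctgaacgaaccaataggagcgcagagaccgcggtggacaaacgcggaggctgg
Mcm6 (chr1:128359656-128359955, minus strand): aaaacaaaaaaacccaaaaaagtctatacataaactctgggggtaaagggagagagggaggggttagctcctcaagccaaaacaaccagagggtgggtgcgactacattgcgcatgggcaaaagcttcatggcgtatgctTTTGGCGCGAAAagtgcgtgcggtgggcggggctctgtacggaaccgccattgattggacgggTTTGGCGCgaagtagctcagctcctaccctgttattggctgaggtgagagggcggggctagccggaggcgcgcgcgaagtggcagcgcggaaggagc
Cdt1 (chr8:122567765-122568064, plus strand): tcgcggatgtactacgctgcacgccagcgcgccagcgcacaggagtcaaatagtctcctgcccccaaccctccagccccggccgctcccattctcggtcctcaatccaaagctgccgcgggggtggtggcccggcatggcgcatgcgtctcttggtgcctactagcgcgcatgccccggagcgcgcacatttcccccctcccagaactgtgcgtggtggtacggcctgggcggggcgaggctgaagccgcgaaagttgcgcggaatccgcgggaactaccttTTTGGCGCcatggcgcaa
Cdc6 (chr11:98907901-98908200, plus strand): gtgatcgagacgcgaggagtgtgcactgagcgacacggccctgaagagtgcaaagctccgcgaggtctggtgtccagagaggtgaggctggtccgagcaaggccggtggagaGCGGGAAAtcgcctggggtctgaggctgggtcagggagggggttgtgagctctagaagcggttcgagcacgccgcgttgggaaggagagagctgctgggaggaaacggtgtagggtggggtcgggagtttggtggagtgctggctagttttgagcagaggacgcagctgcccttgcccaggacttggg
Rpa1 (chr11:75348334-75348633, minus strand): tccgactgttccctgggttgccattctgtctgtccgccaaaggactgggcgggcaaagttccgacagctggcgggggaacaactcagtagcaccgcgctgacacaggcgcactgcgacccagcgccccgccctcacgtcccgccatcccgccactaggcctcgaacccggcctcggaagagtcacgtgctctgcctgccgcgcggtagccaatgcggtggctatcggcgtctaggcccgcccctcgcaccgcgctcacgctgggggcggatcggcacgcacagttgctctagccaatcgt
Dut (chr2:125247265-125247564, plus strand): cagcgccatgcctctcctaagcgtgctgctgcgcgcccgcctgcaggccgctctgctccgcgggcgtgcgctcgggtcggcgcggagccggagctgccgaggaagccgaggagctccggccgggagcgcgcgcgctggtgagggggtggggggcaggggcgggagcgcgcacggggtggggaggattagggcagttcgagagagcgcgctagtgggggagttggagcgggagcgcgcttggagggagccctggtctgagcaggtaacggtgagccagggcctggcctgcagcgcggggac

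The words searched were TTTCCCGC, TTTGGCGC, TTTCGCGC and TTTGCCGC on both strands, and a match on one strand may overlap a match on the other, as in Mcm5 and in the first 2 matches of Mcm6. RefSeq windows were found for 34 of the 43 members. Of those 34 genes, 14 (41.2%) held at least 1 of the words, against 704 of 27025 genes with a window (2.61%). The 14 were Orc1, Cdc6, Cdt1, Mcm3, Mcm5, Mcm6, Mcm7, Gins3, Pola1, Pold1, Pold3, Pole2, Rfc3 and Lig1, so that 4 of the 5 MCM2-7 genes with a window held one. Most of the 34 held none. Among these were Pcna, Mcm2, Prim1 and Tyms, which were also called higher with CD and Rxra-OE and lower with shE3. Whether the words go with the changes was not tested. CCAAT, the letters bound by NF-Y, stood in 21 of 34 members (61.8%) and in 41.1% of all genes. TTTGAA, the letters of the cell cycle homology region, stood in 5 of 34 members (14.7%) and in 20.2% of all genes. A match is a description of the letters, and the absence of a match in Rpa1 and Dut says only that these letters are not in these windows. For Cdc6 and Dut the bases before the GENCODE start were not searched.

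4 of the 5 tables hold TPM, transcript abundances divided by transcript length and scaled to a fixed total, so that levels of different genes can be set side by side. Their sequencing depth cannot be read from the values. The actinomycin D table holds RPM, reads of a gene scaled to the library's total, from which 15382821 to 24186485 reads per library were recovered. Of these, 14723 to 76025 per library fell on the 43 members. The genes of the mitochondrial genome took 50.9 to 62.0% of the total in the first 2 tables, against 4.93 to 17.4% in the others, so levels are set against each other within a table only, and the tables were normalized separately. A change is the difference of log2(value + 1) between group means, with libraries first rescaled to a common median gene, and it therefore understates changes of genes with low values. Changes are given ± SE from limma, with 2 libraries per group throughout. A gene was tested where at least 2 libraries of its table reached 1, which all 43 members did in every table, and it is called higher or lower where limma gave a Benjamini-Hochberg adjusted p under 0.05 over all genes tested (2-sided). In bulk RNA, fewer cells of a type and less RNA per cell cannot be told apart, and a higher share of cells in S phase cannot be told apart from more RNA in each.

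With CD, nearly the whole replication machinery carried more RNA than with DMSO. Of the 43 members, 40 were called higher, 2 lower and 1 was not called, in a comparison where 61.7% of 13006 genes tested were called, with 30.5% called higher and 31.1% lower. The median change of the members was 0.77 on the log2 scale, against 0.00 over all genes. The 2 largest rises were those of the licensing genes Cdt1 and Gmnn, and the 2 members that fell were the large RPA subunit Rpa1 and the dUTPase Dut.

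All 5 licensing genes rose. Cdt1, the loader of the MCM ring, stood at 32.7 and 33.7 TPM in the CD libraries and 9.76 and 11.4 TPM in the DMSO libraries, a log2 change of 1.37 ± 0.06 (limma adjusted p = 7.59e-05). Gmnn, its inhibitor, stood at 28.0 and 30.6 against 9.35 and 9.52 TPM, a change of 1.34 ± 0.06 (limma adjusted p = 6.34e-05). The loading factor and its inhibitor thus rose by amounts whose errors overlap, and in neither did a CD library come near a DMSO library. Orc1, Orc6 and Cdc6 rose by 0.77 to 0.96, from low levels of 1.11 and 1.19 TPM for Orc1 and Cdc6 in DMSO.

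The 6 subunits of the helicase rose together, by 0.71 to 1.29. Mcm6 rose most, from 6.52 and 7.07 TPM to 20.0 and 21.6 TPM, a change of 1.29 ± 0.06 (limma adjusted p = 7.46e-05). Mcm3 stood at 22.5 and 23.1 against 9.47 and 9.15 TPM (1.01 ± 0.06), and Mcm5 at 18.6 and 18.8 against 7.27 and 7.99 TPM (1.00 ± 0.05). Mcm7, the most abundant subunit in both groups, went from 16.1 and 18.3 to 37.4 and 39.6 TPM (0.92 ± 0.06). The smaller changes were those of Mcm2 (0.75 ± 0.05) and Mcm4 (0.71 ± 0.05), and the 6 mean levels summed to 58.4 TPM with DMSO and 136 TPM with CD. The order of the subunits changed with it, since Mcm6 had the lowest mean TPM of the 6 with DMSO and the third highest with CD.

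Among the helicase activators all 6 were called higher, led by the GINS subunit Gins2 (7.73 and 6.29 against 2.08 and 2.80 TPM, a change of 1.06 ± 0.14, limma adjusted p = 0.00183). Of the 9 polymerase and primase genes 8 rose, most of all Prim1, the catalytic primase subunit (11.1 and 9.24 against 3.80 and 3.42 TPM, 1.10 ± 0.12, limma adjusted p = 0.000909). Pola2, which tethers primase to polymerase alpha, was the one member not called, at 13.4 and 12.2 TPM with CD and 10.0 and 11.5 TPM with DMSO. Its change was 0.04 ± 0.08 (limma adjusted p = 0.661), and after rescaling its libraries overlapped between the groups.

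The clamp Pcna went from 35.5 and 37.8 to 77.2 and 79.7 TPM (0.87 ± 0.04, limma adjusted p = 6.01e-05), which made it the most abundant member with CD, where Dut had been with DMSO. Of the clamp loader, Rfc4 rose most (1.20 ± 0.12) and Rfc1, the large subunit, least (0.25). The RPA trimer did not move as one. Rpa3, the small subunit, rose from 9.39 and 10.2 to 30.4 and 27.2 TPM (1.26 ± 0.07, limma adjusted p = 0.000147), while Rpa1 stood at 13.8 and 15.5 TPM with DMSO and 13.9 and 13.7 TPM with CD (-0.28 ± 0.06, limma adjusted p = 0.0101). Rpa1 is called lower only relative to the median gene: as deposited its change was -0.08 (limma adjusted p = 0.404), since the median gene rose by 0.18 there, and without the second CD library the call was lost too (adjusted p = 0.0562).

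Both enzymes of lagging-strand maturation rose, Lig1 from 6.09 and 6.34 to 15.8 and 17.0 TPM (1.08 ± 0.06, limma adjusted p = 0.000122). Of the nucleotide supply genes, Tyms rose by 0.58 ± 0.09, Rrm1 and Rrm2 by 0.41 and 0.34, and Dut was lower, at 50.5 and 57.8 against 60.1 and 63.8 TPM (-0.40 ± 0.06, limma adjusted p = 0.00332; as deposited -0.19, limma adjusted p = 0.0739). Ccne1 rose from 8.02 and 8.50 to 16.0 and 16.3 TPM (0.70 ± 0.05, limma adjusted p = 0.000298). Ccne2, at 2.35 and 2.00 against 1.17 and 1.41 TPM, was called higher (0.34 ± 0.11, limma adjusted p = 0.0375) but lost the call in 6 of 10 other settings, including the omission of either DMSO library or of the first CD library.

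**Figure D1:**
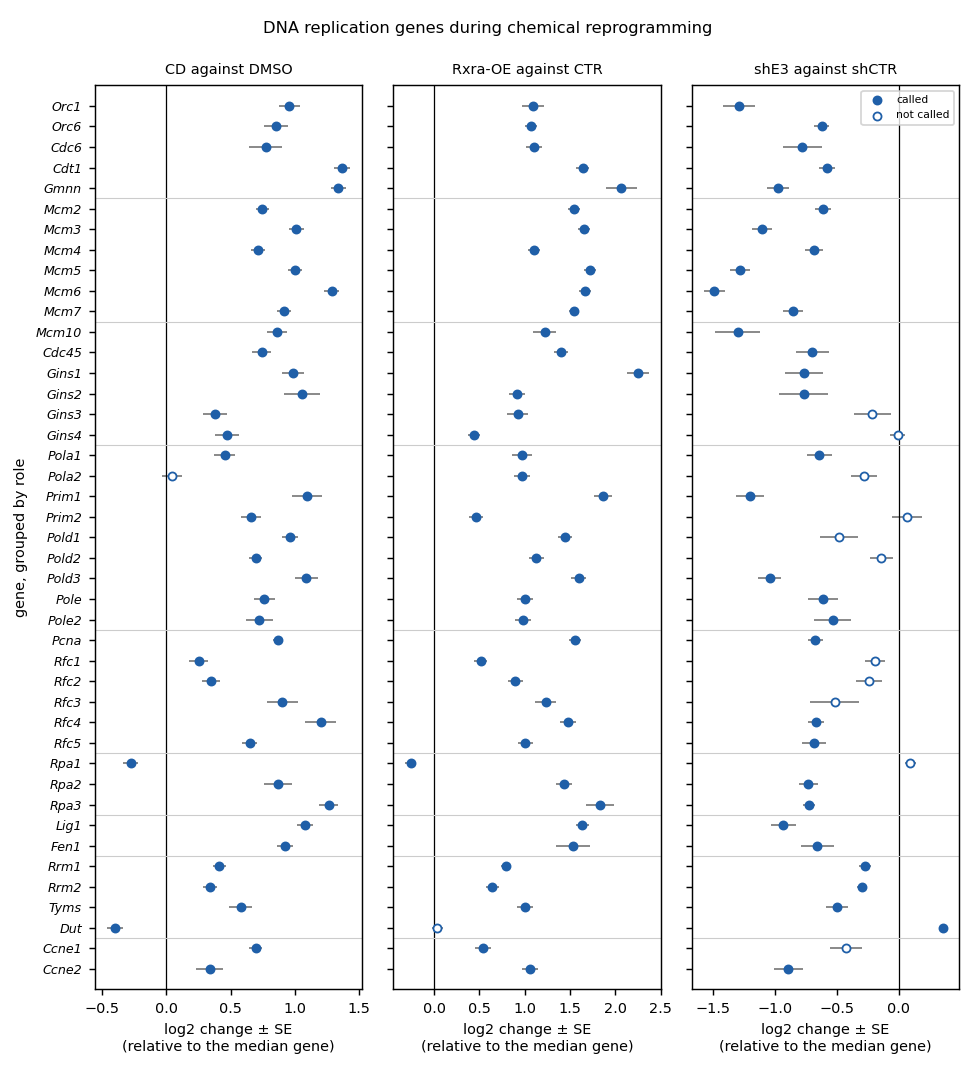
Log2 change relative to the median gene (horizontal axis, bars give the SE) for each of the 43 replication genes (vertical axis, grouped by role) in 3 separate tables, with filled points for genes called at limma adjusted p under 0.05 and open points for the rest. Nearly all points lie right of 0 with CD and with Rxra-OE and left of 0 with shE3, while Rpa1 and Dut depart from most others in each panel. Pola2 with CD and Prim2 with shE3 also lie near 0. As deposited, Rpa1 lies at 0.45 with Rxra-OE.

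The wider pathway was read from further genes that act around the fork. Of 28 further replication genes 23 were called higher and 1 lower (median change 0.45), with the smallest p for Orc5, another subunit of the origin recognition complex, at 9.88 and 10.4 against 4.45 and 4.46 TPM (0.85 ± 0.06, limma adjusted p = 0.000313). Of 10 further nucleotide supply genes 7 rose and 2 fell, among them Dctpp1, a dCTP pyrophosphatase, at 47.2 and 51.4 against 14.6 and 17.9 TPM (1.35 ± 0.08, limma adjusted p = 0.000162). Of 10 genes of replication-coupled chromatin 9 rose, with Nasp, a histone chaperone, at 33.5 and 34.4 against 13.0 and 13.7 TPM (1.09 ± 0.04, limma adjusted p = 5.7e-05). The regulators did not follow one direction. The E2F and RB family had 5 of 13 higher and 5 lower, with E2f8, a repressor E2F, lower (-0.84 ± 0.06, limma adjusted p = 0.000283). E2f7, also a repressor E2F, was higher (0.58 ± 0.09, limma adjusted p = 0.003). E2f1 was lower (-0.46 ± 0.06, limma adjusted p = 0.00174). Of 14 G1/S cyclins, CDKs and their inhibitors, 6 were higher and 6 lower, and Cdkn1a, the CDK inhibitor p21, fell from 262 and 257 to 138 and 146 TPM (-1.08 ± 0.04, limma adjusted p = 5.7e-05). Of the other CDK inhibitors, Cdkn2a and Cdkn2b were lower too, and Cdkn1b and Cdkn1c were higher (0.90 ± 0.06 and 0.93 ± 0.07).

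Markers of cell identity moved in the same comparison. Of 15 fibroblast markers 14 were called lower and 1 higher, and their summed level was 2129.7 to 2253 TPM with DMSO and 1454 to 1522 TPM with CD. All 9 epithelial markers were higher (212 to 228 TPM summed with DMSO, 796 to 849.9 TPM with CD), as were 7 of 8 endoderm markers of the XEN-like state that chemical reprogramming passes through (748 to 795 and 1393 to 1396 TPM). The 10 pluripotency markers summed to 8.61 to 8.94 TPM with DMSO and 31.2 to 31.5 TPM with CD, with Pou5f1 listed at 0 in every library of this table, and the 10 macrophage markers to 7.14 to 7.97 and 10.8 to 11.5 TPM. The mitochondrial share was 55.4 to 57.1% of TPM with DMSO and 52.9 to 53.3% with CD. The part of cell identity and of the mitochondrial share in the changes of the replication genes was not tested.

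Overexpression of Rxra gave the same direction as CD, with a larger median change, which was not tested against that of CD because the tables were normalized separately. Rxra itself, the check of the labels, went from 8.70 and 9.57 TPM in CTR to 21.7 and 21.7 TPM in Rxra-OE, a change of 0.47 ± 0.06 (limma adjusted p = 0.000957). Of the 43 members 41 were called higher, 1 lower and 1 was not called, where 70.5% of 13305 genes were called, 35.1% higher and 35.5% lower. The median change of the members was 1.11, against 0.01 over all genes. As deposited the median gene rose by 0.62 in this comparison.

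Geminin rose most among the licensing genes, from 4.42 and 7.47 to 44.1 and 45.4 TPM, a change of 2.07 ± 0.17 (limma adjusted p = 0.00018). Cdt1 rose from 5.07 and 5.49 to 31.9 and 28.9 TPM (1.64 ± 0.07, limma adjusted p = 2.18e-05). The 6 MCM2-7 genes rose by 1.10 to 1.72, with Mcm5 first, at 32.5 and 34.0 against 5.39 and 5.55 TPM (1.72 ± 0.07, limma adjusted p = 1.68e-05). Mcm2, Mcm3, Mcm6 and Mcm7 followed at 1.54 ± 0.07, 1.65 ± 0.06, 1.66 ± 0.06 and 1.54 ± 0.06, and Mcm4 was the lowest at 1.10 ± 0.07. Their summed mean level was 42.0 TPM in CTR and 220.0 TPM in Rxra-OE.

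The largest change of any member was that of Gins1, a GINS subunit, from 1.00 and 1.51 to 15.6 and 13.9 TPM (2.25 ± 0.12, limma adjusted p = 3.95e-05). The 9 polymerase and primase genes were all called higher, Prim1 from 2.08 and 2.82 to 18.4 and 18.03 TPM (1.86 ± 0.10, limma adjusted p = 3.67e-05). Pcna rose from 25.5 and 25.3 to 129.8 and 126 TPM (1.55 ± 0.07, limma adjusted p = 2.02e-05) and was the most abundant member with Rxra-OE. Lig1 rose by 1.63 ± 0.07 and Tyms by 1.00 ± 0.09. Both cyclins E rose, with Ccne2 (4.69 and 5.20 against 0.957 and 1.06 TPM, 1.06 ± 0.09) ahead of Ccne1 (19.6 and 21.9 against 8.33 and 8.13 TPM, 0.54 ± 0.09), the opposite of their order with CD. In CTR 6 members did not reach 1 TPM in both libraries (Orc1, Cdc6, Gins1, Gins3, Pole and Ccne2) and were tested through the Rxra-OE libraries, so that their being higher follows in part from the filter on low values, which with CD holds for Cdc6 alone.

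Rpa1 and Dut again stood apart, and here the scaling decides what can be said of them. Rpa1 stood at 21.1 and 20.7 TPM against 14.1 and 16.0 TPM, so both Rxra-OE libraries were above both CTR libraries as deposited (log2 change 0.45, limma adjusted p = 0.00403). Relative to the median gene it was lower, at -0.26 ± 0.06 (limma adjusted p = 0.0101), a call that was lost with quantile normalization and without either Rxra-OE library. Dut stood at 45.5 and 47.5 against 25.6 and 28.4 TPM, which is 0.04 ± 0.06 (limma adjusted p = 0.592) relative to the median gene and 0.76 (limma adjusted p = 0.000319) as deposited. Relative to the median gene these were the 2 lowest changes of the 43, beside Rpa3 in the same RPA trimer at 1.83 ± 0.15.

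The further replication genes had 24 of 28 higher and 1 lower (median 0.86), with the smallest p for Wdhd1, which links the helicase to polymerase alpha, at 7.08 and 7.66 against 1.11 and 1.28 TPM (1.39 ± 0.09, limma adjusted p = 6.31e-05). All 10 chromatin genes rose, with Nasp at 61.5 and 60.4 against 9.75 and 10.2 TPM (1.78 ± 0.06, limma adjusted p = 1.12e-05), and so did 7 of 10 further nucleotide supply genes, with Tk1, thymidine kinase, at 16.2 and 15.8 against 2.58 and 2.84 TPM (1.56 ± 0.07, limma adjusted p = 2.38e-05) while 2 fell. In the E2F and RB family 8 of 13 rose and 4 fell, with E2f5, an E2F of the repressor class, higher (0.99 ± 0.07, limma adjusted p = 0.000101). E2f7 was higher here too (1.03 ± 0.11), while E2f8 (-1.27 ± 0.10) and E2f1 (-0.63 ± 0.08) were lower. Among 14 G1/S regulators 5 rose and 8 fell, and Cdkn2b, the CDK inhibitor p15, had the smallest p (-2.03 ± 0.06, limma adjusted p = 1.06e-05), from 51.9 and 60.8 to 22.9 and 21.3 TPM. Fibroblast markers were called lower in 13 of 15 genes (1881 to 2118 TPM summed in CTR, 1064 to 1080.4 TPM in Rxra-OE) and epithelial markers higher in 9 of 9 (105 to 119 and 823 to 850.3 TPM). Endoderm markers were higher in 7 of 8 genes and lower in 1 (854 to 982 and 1597 to 1685 TPM), pluripotency markers summed to 3.02 to 3.11 and 23.0 to 24.2 TPM, and macrophage markers to 13.2 to 15.3 and 11.2 to 11.8 TPM. The mitochondrial share was 59.3 to 62.0% of TPM in CTR and 50.9% in both Rxra-OE libraries. The part of these in the members' changes was not tested.

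Knockdown of Exosc3 gave the opposite direction. Exosc3 itself stood at 5.97 and 4.01 TPM in shE3 and 8.86 and 10.2 TPM in shCTR, a change of -0.79 ± 0.17 (limma adjusted p = 0.0221), a call that was lost in 4 of 11 other settings. Of the 43 members 31 were called lower, 1 higher and 11 were not called, in a comparison where 28.1% of 15700 genes were called, 14.2% higher and 13.9% lower. The median change of the members was -0.66, against -0.01 over all genes. Without a filter on low values 21 members were called lower instead of 31.

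The MCM2-7 helicase held the steepest fall, that of Mcm6, and all 6 subunits were called lower. Mcm6 went from 26.8 and 29.0 TPM in shCTR to 9.68 and 8.29 TPM in shE3, a change of -1.49 ± 0.08 (limma adjusted p = 0.000998). Mcm5 stood at 6.92 and 7.36 against 18.9 and 20.0 TPM (-1.28 ± 0.08, limma adjusted p = 0.00141), Mcm3 at 9.15 and 9.50 against 19.9 and 24.1 TPM (-1.11 ± 0.08) and Mcm7 at 22.5 and 25.5 against 42.5 and 48.5 TPM (-0.85 ± 0.08). Mcm2 and Mcm4 changed less (-0.61 ± 0.06 and -0.69 ± 0.07). The summed mean level of the 6 was 159 TPM in shCTR and 76.0 TPM in shE3, and Mcm6 passed from the second to the fifth place among them.

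All 5 licensing genes were called lower, with Orc1 at 2.09 and 1.91 against 6.63 and 6.403 TPM (-1.29 ± 0.13, limma adjusted p = 0.00316), Gmnn at 9.62 and 9.37 against 18.01 and 22.7 TPM (-0.98 ± 0.09, limma adjusted p = 0.00254) and Cdt1 at 14.1 and 13.5 against 20.6 and 23.0 TPM (-0.58 ± 0.06, limma adjusted p = 0.00398). Of the 6 activators 4 fell, Mcm10 from 9.16 and 11.2 to 2.74 and 4.15 TPM (-1.30 ± 0.18, limma adjusted p = 0.00723; 0.0558 without the filter). The polymerases were more divided, with 5 of 9 lower and 4 not called. Prim1 fell from 12.2 and 14.6 to 5.62 and 4.58 TPM (-1.20 ± 0.11, limma adjusted p = 0.00278), while its partner Prim2 stood at 9.21 and 11.2 against 9.16 and 10.9 TPM (0.07 ± 0.12, limma adjusted p = 0.716).

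Pcna fell from 132 and 139.7 to 79.5 and 85.0 TPM (-0.67 ± 0.06, limma adjusted p = 0.0023), and 2 of the 5 RFC genes were called lower, Rfc5 the more so (-0.68 ± 0.10). Rpa2 and Rpa3 fell by nearly equal amounts, Rpa2 from 20.4 and 24.4 to 12.4 and 12.9 TPM (-0.73 ± 0.08, limma adjusted p = 0.00348), and Rpa1 stood at 49.8 and 49.5 against 45.4 and 50.3 TPM (0.09 ± 0.04, limma adjusted p = 0.168). Lig1 (-0.93 ± 0.10), Tyms (-0.50 ± 0.09), Rrm1 and Rrm2 were lower, and Dut was the one member called higher, at 178 and 174 against 135 and 147 TPM (0.36 ± 0.03, limma adjusted p = 0.00301). Ccne2 fell from 12.03 and 11.1 to 5.49 and 5.64 TPM (-0.90 ± 0.12, limma adjusted p = 0.00603), and Ccne1, at 11.2 and 14.04 against 16.3 and 19.3 TPM, did not pass (-0.43 ± 0.13, limma adjusted p = 0.0579), although 4 other settings called it.

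**Figure D2:**
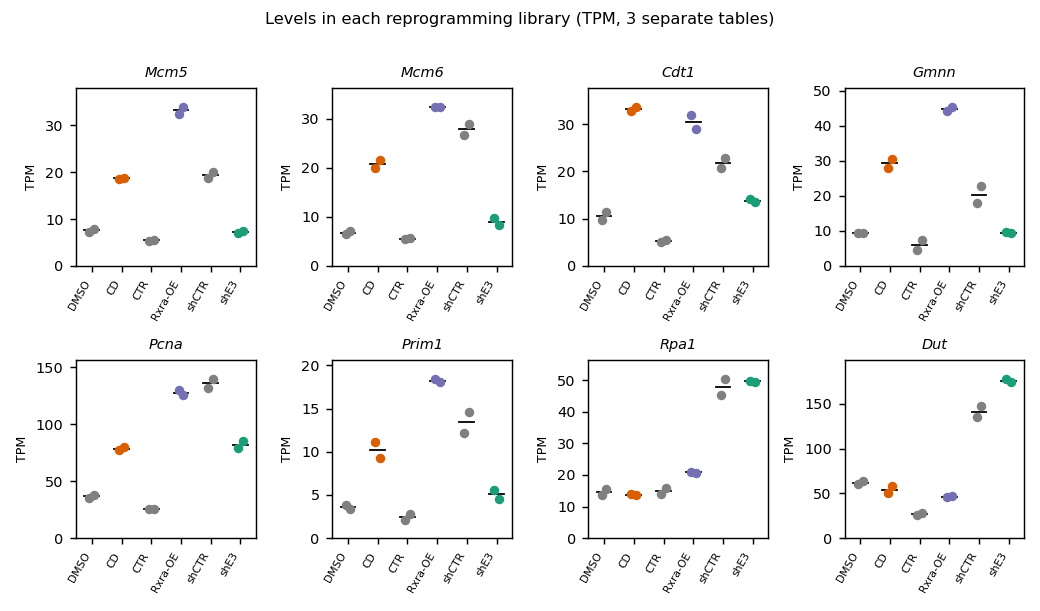
TPM as deposited (vertical axis, from 0) in each library of the CD, Rxra-OE and shE3 tables for 8 replication genes, with points for libraries and bars for the mean of each group. The 3 tables were normalized separately, so only neighbouring control and treated groups compare: Mcm5 stood at 18.6 and 18.8 TPM with CD against 7.27 and 7.99 with DMSO and at 6.92 and 7.36 with shE3 against 18.9 and 20.0 with shCTR.

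Around the members, 12 of 28 further replication genes were called lower and none higher (median -0.38), Wdhd1 from 8.80 and 10.1 to 3.21 and 3.46 TPM (-1.23 ± 0.11, limma adjusted p = 0.00232). Of the chromatin genes 5 of 10 fell and none was called higher, with Nasp at 16.9 and 16.4 against 29.2 and 34.3 TPM (-0.84 ± 0.06, limma adjusted p = 0.00167). Of the further nucleotide supply genes 4 of 10 fell and 1 rose, Dtymk, thymidylate kinase, falling by 0.35 ± 0.05 (limma adjusted p = 0.00822). In the E2F and RB family 5 of 13 fell and 2 rose, and E2f7, a repressor E2F, fell from 2.85 and 3.09 to 0.620 and 0.700 TPM (-1.23 ± 0.15, limma adjusted p = 0.00486). E2f1 was higher (0.38 ± 0.05, limma adjusted p = 0.00619). Of 14 G1/S regulators 5 rose and 4 fell, with Ccnd3, a D-type cyclin, higher (0.48 ± 0.04, limma adjusted p = 0.00222). Epithelial markers were lower in 9 of 9 genes (280.1 to 317 TPM summed in shCTR, 108 to 110.0 TPM in shE3) and endoderm markers in 7 of 8 (1683 to 1879.8 and 1331 to 1339 TPM). Of 15 fibroblast markers 8 were higher and 2 lower, with sums of 3737 to 4158 TPM in shCTR and 3861 to 3940.2 TPM in shE3. Pluripotency markers summed to 30.1 to 35.2 and 9.23 to 9.33 TPM and macrophage markers to 156 to 190.2 and 370.2 to 373 TPM, and 1 of 8 tested macrophage markers was called higher. The mitochondrial share was 15.5 and 14.4% of TPM in shCTR and 11.9 and 11.8% in shE3. The part of these in the members' falls was not tested.

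Set side by side, 31 of the 43 members were called higher with CD, higher with Rxra-OE and lower with shE3. That pattern was found in 1270 of 12418 genes tested in all 3 tables, which is 10.2%. None of the members had the reverse pattern. All 5 licensing genes and all 6 MCM2-7 genes were among the 31. Of the 31, Orc1, Cdc6 and Ccne2 were tested in the Rxra-OE table through the Rxra-OE libraries, and Cdc6 in the CD table through the CD libraries. Their being higher there follows in part from the filter on low values, so they add little to the joint count. The 3 comparisons share no library, but all were made in the same medium.

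The actinomycin D table holds a further CD and DMSO comparison, at 0 h, in other libraries than the first table. There 18 of the 43 members were called higher and 1, Dut, lower, where 16% of 17064 genes were called, 6.77% higher and 9.27% lower. The median change was 0.60, against 0.05 over all genes. Of the 43 members, 17 were called higher in both CD comparisons, as were 6.72% of 12723 genes tested in both. In 39 members both CD_0h libraries lay above both DMSO_0h libraries after rescaling, which held for 30.4% of all genes.

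The 2 CD_0h libraries differed from each other, and the calls rest on that pair. The members' values summed to 3143 RPM in the first CD_0h library and 2242 in the second, against 1823 and 1467 in DMSO_0h. Without the first CD_0h library or without the second DMSO_0h library no member was called, and without the second CD_0h library 34 were. No member was called with spike-in scaling or when only these 4 libraries entered the fit, 2 without the filter, 18 by edgeR and 28 by DESeq2 on the recovered reads. With limma, 31 members had an unadjusted p under 0.05.

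Cdt1 stood at 186 and 70.4 RPM with CD and 45.7 and 22.6 with DMSO, a change of 1.64 ± 0.46 (limma adjusted p = 0.0385). Gmnn stood at 50.4 and 25.9 against 20.0 and 12.7 (0.97 ± 0.27, limma adjusted p = 0.038). In both genes the lower CD library was above the higher DMSO library. Mcm5 rose most of the helicase, at 139 and 85.1 against 58.3 and 34.6 RPM (1.10 ± 0.25, limma adjusted p = 0.0203), and Mcm3 and Mcm7 were called too (0.90 ± 0.27 and 0.69 ± 0.20), while Mcm2, Mcm4 and Mcm6 (0.45 ± 0.15, 0.38 ± 0.13 and 0.75 ± 0.24) missed the threshold with limma adjusted p of 0.0583, 0.0635 and 0.0556. In the other roles the largest called change was that of Gins3 (1.36 ± 0.39) among activators, Pola2 (0.84 ± 0.25) among polymerases, Rfc3 (1.49 ± 0.41) in the clamp loader, Rpa2 (0.79 ± 0.21) in RPA and Fen1 (1.55 ± 0.45) on the lagging strand. Pola2, which was not called in the first CD comparison, stood at 56.2 and 36.2 against 29.4 and 16.5 RPM here.

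Pcna, at 176 and 142 against 114 and 105 RPM, did not pass (0.37 ± 0.14, limma adjusted p = 0.0898), nor did Ccne2 (0.33 ± 0.24, limma adjusted p = 0.328), and Ccne1 did (0.53 ± 0.16, limma adjusted p = 0.0489). Dut was lower, at 80.2 and 92.6 against 108 and 113 RPM (-0.51 ± 0.15, limma adjusted p = 0.0423), the direction it had in the first CD comparison. Rpa1 stood at 126 and 118 against 127 and 112 RPM, with overlapping values as deposited. Of the further replication genes 9 of 28 were called higher and none lower, and Timeless, a fork protection factor, was at 60.3 and 32.4 against 20.1 and 13.2 (1.22 ± 0.28, limma adjusted p = 0.0216). Of 10 further nucleotide supply genes 1 rose and 2 fell, of 13 E2F and RB genes 2 rose and of 14 G1/S regulators 3 rose and 2 fell. Of the chromatin genes 7 of 10 rose, with Uhrf1, which guides maintenance methylation, at 98.0 and 67.8 against 49.7 and 31.9 (0.86 ± 0.19, limma adjusted p = 0.0195). Of 15 fibroblast markers 9 were lower, with sums of 6938 to 7365 RPM in DMSO_0h and 5776 to 5887 in CD_0h, and 5 of 10 macrophage markers were lower, with sums of 356 to 500.2 and 156 to 248. Of 9 epithelial markers 5 were higher (1287 to 1383 and 1992 to 2025), of 8 endoderm markers 3 (4785 to 5344 and 6503 to 6572) and of 6 tested pluripotency markers 4 (54.4 to 83.7 and 148 to 250.0). The mitochondrial share was 6.92 and 9.03% in DMSO_0h and 4.93 and 5.18% in CD_0h. The part of these in the members' changes was not tested.

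After transcription was blocked, the RNA left differed widely between replication genes, from 13.2% for Cdc6 to 201% for Rpa3 at 4 h with DMSO, with values all along that range. The loss is given as the level left at 4 or 8 h, in percent of the 0 h level and relative to the median gene, with the as-deposited value where it matters. In RPM, which is a share of the library's total, the median gene itself fell. As deposited that gene fell by 0.23 and 0.28 on the log2 scale at 4 h and by 0.33 and 0.34 at 8 h, with DMSO and with CD. Over the 43 members the median left at 4 h was 108% with DMSO and 96.0% with CD, and at 8 h it was 70.8% and 56.0%. In other scalings the 8 h medians were 53.2% and 43.3% as deposited and 43.9% and 33.2% by the spike-ins.

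The lowest shares left at 4 h with DMSO were those of the licensing genes Cdc6, Cdt1 and Orc1 and of the activators Mcm10 and Gins3, and with CD Fen1, at 27.6%, also lay among them. The other 2 licensing genes lost less, with 86.8% left for Orc6 and 108% for Gmnn at 4 h with DMSO and 90.5% and 82.2% with CD. Cdt1 went from 45.7 and 22.6 RPM at 0 h to 7.45 and 8.14 at 4 h and 2.70 and 9.23 at 8 h with DMSO. With CD it went from 186 and 70.4 at 0 h to 18.7 and 16.8 at 4 h and 15.1 and 14.4 at 8 h. Relative to the median gene 28.8% was left at 4 h with DMSO and 18.3% with CD, and the 8 h changes were -2.06 ± 0.46 (limma adjusted p = 0.0118) with DMSO and -2.51 ± 0.46 (limma adjusted p = 0.00315) with CD. Most of the loss had thus happened by 4 h. With CD, Cdc6 stood at 36.9 and 15.3 RPM at 0 h, 3.53 and 2.37 at 4 h and 2.36 and 2.73 at 8 h. With DMSO it stood at 8.77 and 4.67 at 0 h, 0.883 and 0.519 at 4 h and 0.300 and 1.43 at 8 h, where the lowest library held 5 reads. Orc1, Mcm10 and Gins3 had 23.8%, 32.8% and 21.1% left at 4 h with CD, and 41.8%, 41.8% and 43.6% with DMSO.

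Fen1 and Rfc3 also lost most of their RNA with CD. Fen1 stood at 50.6 and 18.2 RPM at 0 h with CD, 7.31 and 7.01 at 4 h and 2.90 and 3.14 at 8 h, a change of -2.62 ± 0.45 (limma adjusted p = 0.00266) at 8 h. Fen1 with DMSO stood at 12.8 and 5.61 at 0 h, 4.80 and 4.41 at 4 h and 2.16 and 5.92 at 8 h, and its 8 h change did not pass. Rfc3 at 8 h with CD changed by -1.96 ± 0.41 (limma adjusted p = 0.00432). Relative to the median gene 20.5% of Rfc3 was left at 8 h with CD and 38.1% with DMSO, so it lost most of its RNA in both arms. Fen1 and Rfc3 are also members in which the first CD_0h library was far above the second.

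The MCM2-7 RNAs were lower at 8 h with CD and not called at 4 h. Mcm2 stood at 112 and 87.9 RPM at 0 h with CD, 98.9 and 95.2 at 4 h and 50.0 and 52.8 at 8 h. None of the 6 was called at 4 h in either arm. At 8 h all 6 were called lower with CD, from -0.42 ± 0.13 for Mcm4 to -1.37 ± 0.27 for Mcm3, and with DMSO Mcm5 alone (-0.98 ± 0.25, limma adjusted p = 0.0188). The others also lay below 0 with DMSO, from -0.24 for Mcm2 to -0.69 for Mcm6. The difference of the 8 h change between the arms was called for none of the 6. Gmnn had 37.3% left at 8 h with DMSO and 45.6% with CD. Pcna had 138% left at 4 h with CD relative to the median gene, a rise of 0.47 ± 0.14 (limma adjusted p = 0.0188) that lay at -0.10 by the spike-ins, and 74.3% at 8 h (-0.42 ± 0.14, limma adjusted p = 0.0287), and 80.4% at 8 h with DMSO (-0.32 ± 0.14, limma adjusted p = 0.103).

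Relative to the median gene, many members kept or gained share at 4 h, when the median left was 108% with DMSO and 96.0% with CD. Few members did so at 8 h. With DMSO and with CD, 123% and 102% of Rfc2 was left at 8 h. For Rfc5 these values were 115% and 89.3%, and for Tyms 106% and 76.4%. Rpa3 stood at 19.8 and 30.7 RPM at 0 h with CD, 48.2 and 49.0 at 4 h and 34.8 and 33.6 at 8 h, a change of 1.33 ± 0.23 (limma adjusted p = 0.00203) at 4 h and 0.81 ± 0.23 (limma adjusted p = 0.0132) at 8 h. The 8 h call was lost in 5 of 15 other settings, and by the spike-ins 109% was left then, against 175% at 4 h. Rpa3 with DMSO stood at 22.1 and 27.0 at 0 h, 40.1 and 39.8 at 4 h and 25.7 and 21.9 at 8 h. Dut with CD stood at 80.2 and 92.6 RPM at 0 h, 116 and 126 at 4 h and 108 and 111 at 8 h (0.71 ± 0.15, limma adjusted p = 0.00413). By the spike-ins 100% of Dut was left at 8 h with CD, so the gain there is one of share. Dut with DMSO stood at 108 and 113 at 0 h, 117 and 115 at 4 h and 120.0 and 117 at 8 h (0.53 ± 0.15, limma adjusted p = 0.0256; -0.16, not called, by the spike-ins). Rpa1 was called higher at 8 h with DMSO relative to the median gene (0.39 ± 0.10, limma adjusted p = 0.0209) and lay at -0.039 as deposited and -0.30 by the spike-ins, neither called. Rpa1 and Dut, the 2 members lower with CD in the first table, were among those that lost least at 8 h. So were Rfc2, Rfc5 and, with DMSO, Tyms, all called higher in that table. Rpa3 was among them too, and had risen there by 1.26 but stood at -0.14 ± 0.23 between CD_0h and DMSO_0h. Whether the change with CD goes with the loss was not tested.

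**Figure D3:**
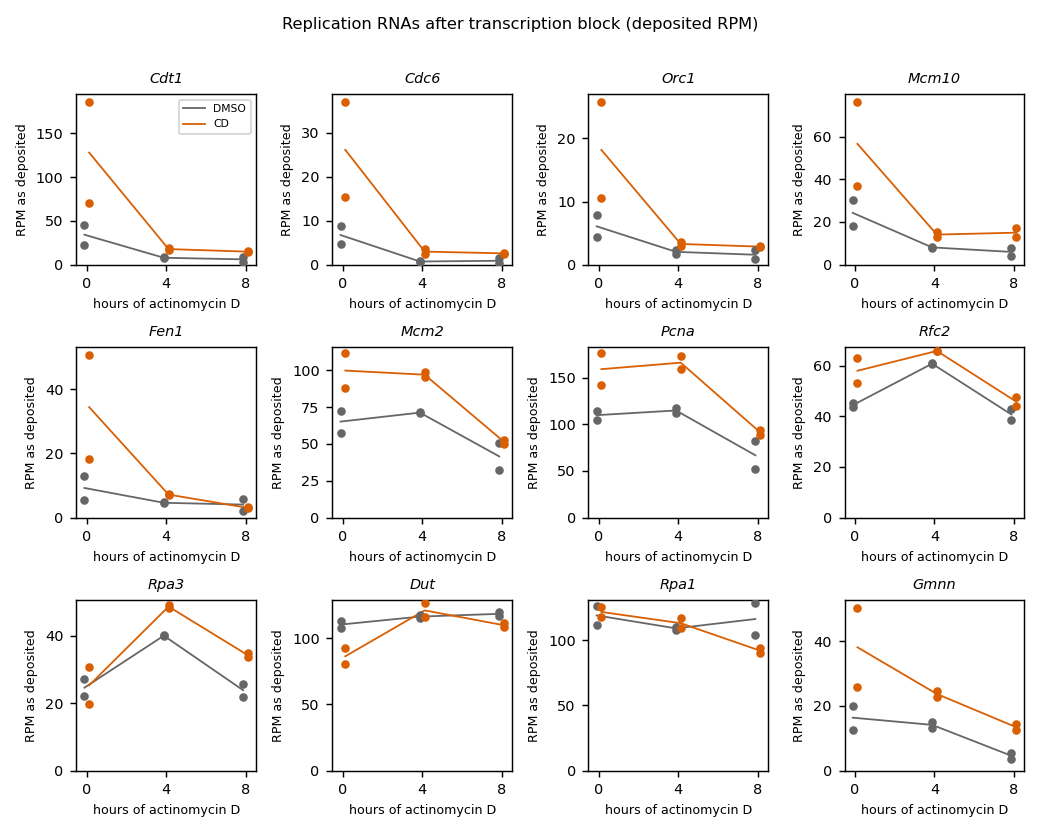
RPM as deposited (vertical axis, from 0) against hours of actinomycin D (horizontal axis) for 12 replication genes, with points for single libraries (2 per group) and lines through the group means, in grey for DMSO and orange for CD. Cdt1, Cdc6, Orc1 and Mcm10 drop by 4 h, Mcm2 and Pcna drop between 4 and 8 h, and Dut and Rpa3 stay near or above their 0 h level; the first CD_0h library lies far above the second for Cdt1 (186 and 70.4).

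Counted over the members, 5 were called higher and 3 lower at 4 h with DMSO, where 20.6% of all genes were called, 7.58% higher and 13.1% lower. The 5 included Rfc2, Lig1, Tyms and Rpa3. At 4 h with CD 8 were higher and 10 lower, where 51% of all genes were called, 25.6% higher and 25.3% lower. The 8 were Pcna, Pola1, Rfc2, Rfc5, Rpa1, Rpa3, Tyms and Dut, of which Pcna, Pola1, Rfc5 and Rpa1 lay below 0 by the spike-ins. At 8 h the counts were 2 higher and 13 lower with DMSO, where 30.4% of all genes were called, 17% higher and 13.4% lower, and 2 higher and 32 lower with CD, where 54.1% were, 24.7% higher and 29.4% lower. The comparisons within an arm share its 0 h libraries. With CD the mitochondrial share was 8.17 and 8.39% at 4 h and 8.99 and 9.29% at 8 h, above both 0 h libraries, and its part in the changes was not tested. The DMSO count at 8 h was 31 as deposited instead of 15, and fell to 2 without the first DMSO_0h or the first DMSO_8h library, and to 8 without the filter. The CD count of 34 was 19 without the first CD_0h library and 21 without the first CD_8h library. At 4 h no member was called with DMSO by the spike-ins or without the first DMSO_0h, the first DMSO_4h or the second DMSO_4h library, and with CD 8 were called without either CD_4h library.

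The question of whether CD changed the loss was tested as the difference of the 8 h change between the arms. By limma no member was called higher or lower, nor by edgeR or DESeq2, and 5 members had an unadjusted p under 0.05, where 0.00586% of all genes (1 of 17064, called higher) were called and 0% lower. Fen1 had the largest difference, -1.93 ± 0.63 (limma adjusted p = 0.342), and that of Cdt1 was -0.45 ± 0.65 (limma adjusted p = 0.769). The median difference over the members was -0.33, against -0.06 over all genes, and it was positive in 9 of 43 members. The SE of the difference for Cdt1 was larger than the difference itself, so a difference of that size could not be detected with 2 libraries per group.

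Genes around the members lost RNA as well. At 8 h with CD 16 of 28 further replication genes were lower and 1 higher, with Ticrr, which helps load Cdc45, at 3.66 and 6.22 against 37.1 and 22.0 RPM at 0 h (-1.999 ± 0.34, limma adjusted p = 0.0026), and 9 of 10 chromatin genes were lower, with Chaf1a, a chromatin assembly factor subunit, at 29.0 and 28.5 against 82.5 and 69.0 (-0.9969 ± 0.15, limma adjusted p = 0.00187). E2f3, an activator E2F, fell from 124 and 59.2 to 20.7 and 20.7 with CD (-1.63 ± 0.29, limma adjusted p = 0.00306) and from 42.2 and 29.1 to 5.10 and 9.23 with DMSO (-1.80 ± 0.29, limma adjusted p = 0.00452). Of 10 further nucleotide supply genes 3 rose with CD and 1 fell, with Cmpk1, a nucleoside monophosphate kinase, higher (1.03 ± 0.17, limma adjusted p = 0.00262). Of 14 G1/S regulators 3 rose and 6 fell, with the D-type cyclin Ccnd2 higher (0.72 ± 0.12, limma adjusted p = 0.00273).

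In the iPSC lines the replication genes stood far above fibroblast levels. Against MEF, 42 of the 43 members were called higher and none lower in each of DMSO-iPSC, CD-iPSC and R1, in comparisons where 68.4%, 69.4% and 68.9% of 17414 genes were called. The shares of all genes called higher were 34.6%, 35.3% and 35.1%, and those called lower 33.8%, 34.1% and 33.8%. The median change was 1.99, 2.28 and 2.08, against 0.08, 0.08 and 0.07 over all genes. The 43 members summed to 1291 and 1345 TPM in MEF and to 4959 to 6163 TPM in the 6 pluripotent libraries. The 3 comparisons share the MEF libraries.

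Orc1 had the largest change of the licensing genes. It stood at 5.89 and 4.34 TPM in MEF, 63.5 and 58.7 in DMSO-iPSC, 61.0 and 57.5 in CD-iPSC and 86.3 and 80.1 in R1, with changes against MEF of 3.49 ± 0.14 (limma adjusted p = 1.34e-06), 3.38 ± 0.14 (limma adjusted p = 1.33e-06) and 3.74 ± 0.14 (limma adjusted p = 8.32e-07). Gmnn stood at 23.7 and 28.0 TPM in MEF against 182 and 152 in DMSO-iPSC and 224 and 207 in CD-iPSC (2.78 ± 0.12 and 3.09 ± 0.12). Cdt1 stood at 25.2 and 20.1 TPM in MEF against 126 and 124 in DMSO-iPSC and 176 and 136 in CD-iPSC (2.56 ± 0.14 and 2.80 ± 0.14). Every pluripotent library was above both MEF libraries for these 3 genes.

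The MCM2-7 genes rose by 2.01 to 2.81 in DMSO-iPSC and by 2.38 to 2.74 in CD-iPSC, and their summed mean level was 276 TPM in MEF, 1401 TPM in DMSO-iPSC, 1546 TPM in CD-iPSC and 1649 TPM in R1. Mcm7 stood at 51.6 and 55.5 TPM in MEF, 299 and 291 in DMSO-iPSC and 320.2 and 276 in CD-iPSC. Mcm10 rose most of the activators in DMSO-iPSC (3.31 ± 0.10, limma adjusted p = 4.2e-07) and Cdc45 in CD-iPSC (3.09 ± 0.11, limma adjusted p = 6.82e-07). Pole2, a polymerase epsilon subunit, led the polymerases in both (2.28 ± 0.12 and 2.88 ± 0.12). Pcna was the most abundant member in all 4 groups, at 116 and 140.4 TPM in MEF, 470.0 and 444 in DMSO-iPSC, 427 and 452 in CD-iPSC and 489 and 499 in R1 (1.98 ± 0.12 and 1.85 ± 0.12 in the iPSC groups against MEF).

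Rpa1 and Dut, which relative to the median gene were called lower in the first CD comparison, were called higher in both iPSC groups. Rpa1 stood at 35.7 and 38.7 TPM in MEF, 132 and 134 in DMSO-iPSC and 153 and 133 in CD-iPSC, and rose by 1.95 ± 0.09 and 1.99 ± 0.09. Dut stood at 47.4 and 55.5 TPM in MEF, 232 and 242 in DMSO-iPSC and 294 and 276 in CD-iPSC, and was the nucleotide supply gene with the largest rise in both (2.33 ± 0.11, limma adjusted p = 2.75e-06 and 2.53 ± 0.11, limma adjusted p = 1.72e-06). The smallest changes lay elsewhere. Rrm1 was not called in DMSO-iPSC, at 112 and 99.0 against 99.2 and 95.8 TPM (0.25 ± 0.10, limma adjusted p = 0.0537), while its partner subunit Rrm2 stood at 290.3 and 298 against 89.6 and 92.6 TPM. Ccne2 was not called in CD-iPSC (0.26 ± 0.27, limma adjusted p = 0.403) or R1 (0.47 ± 0.27, limma adjusted p = 0.156), at 12.5 and 21.1 TPM in CD-iPSC and 23.2 and 18.2 in R1 against 14.4 and 13.8 in MEF, and its call in DMSO-iPSC (0.77 ± 0.27, limma adjusted p = 0.035) was lost in 7 of 12 other settings. Ccne1 rose from 29.0 and 29.7 TPM in MEF to 208 and 217 in DMSO-iPSC and 138 and 134 in CD-iPSC.

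**Figure D4:**
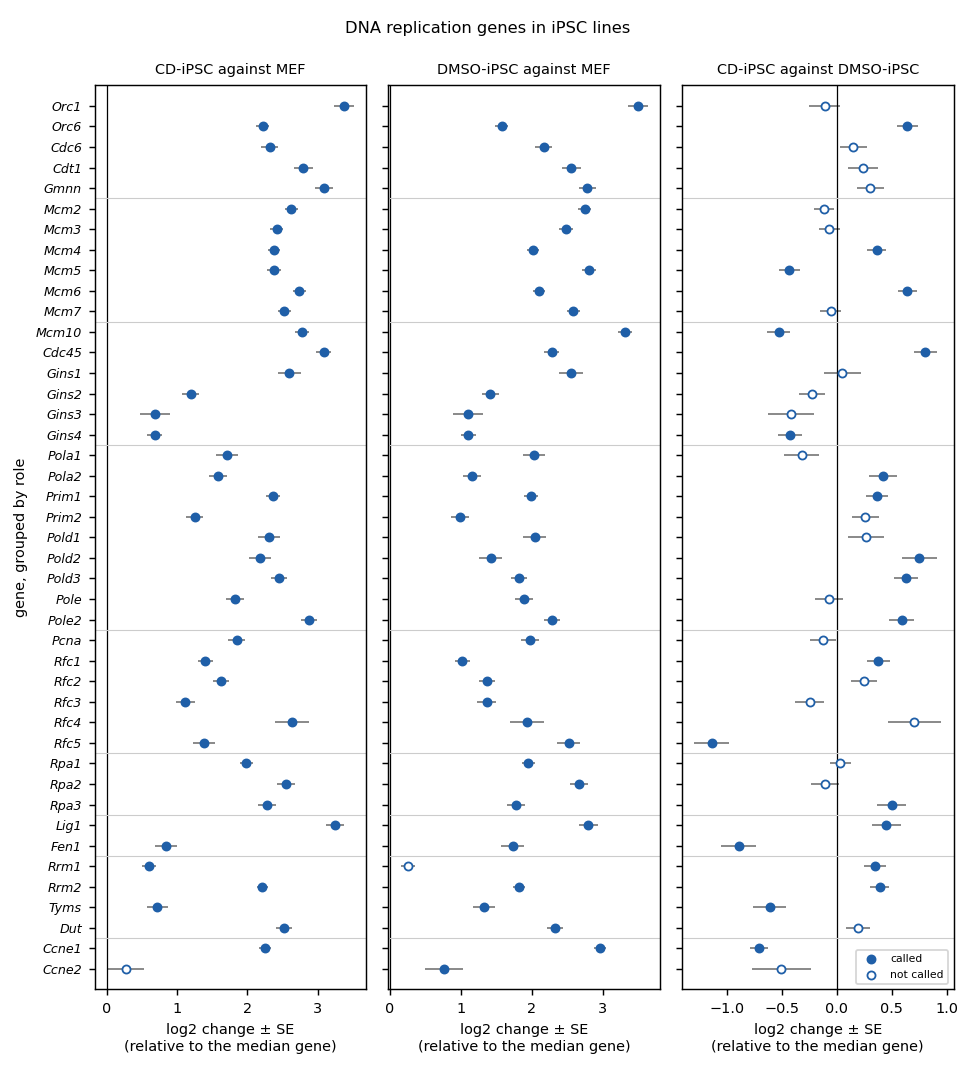
Log2 change relative to the median gene (horizontal axis, bars give the SE) for the 43 replication genes (vertical axis, grouped by role) in CD-iPSC against MEF, DMSO-iPSC against MEF and CD-iPSC against DMSO-iPSC, with filled points for genes called at limma adjusted p under 0.05 and open points for the rest. All points lie right of 0 against MEF, and between the iPSC groups they spread on both sides of 0, from Rfc5 at -1.14 to Cdc45 at 0.81.

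The further genes rose with the members. Of 28 further replication genes 24 were higher and 1 lower in DMSO-iPSC and 25 higher and 1 lower in CD-iPSC, with Dna2, a nuclease and helicase of Okazaki fragments, at 26.5 and 27.2 TPM in DMSO-iPSC and 31.0 and 28.4 TPM in CD-iPSC against 3.48 and 3.27 TPM in MEF (2.80 ± 0.11, limma adjusted p = 1.18e-06 and 2.87 ± 0.11, limma adjusted p = 9.27e-07). All 10 chromatin genes rose in both, Nasp with the smallest p in DMSO-iPSC (3.34 ± 0.10, limma adjusted p = 4.34e-07) and Uhrf1 in CD-iPSC (2.95 ± 0.11, limma adjusted p = 8.72e-07). Of 10 further nucleotide supply genes 6 rose in each, with Dtymk at 2.11 ± 0.11 (limma adjusted p = 3.71e-06) and 1.64 ± 0.11 (limma adjusted p = 1.07e-05). In the E2F and RB family 7 of 13 rose and 3 fell in DMSO-iPSC, and 9 rose and 3 fell in CD-iPSC. Most G1/S regulators were lower, with 3 of 14 higher and 9 lower in DMSO-iPSC and 3 higher and 8 lower in CD-iPSC, and Ccnd2 fell from 292 and 215 TPM to 3.97 and 4.68 TPM in CD-iPSC (-5.49 ± 0.19, limma adjusted p = 6.01e-07). The groups bore the markers of their labels. The 10 pluripotency markers summed to 0.491 to 0.700 TPM in MEF and 6402 to 6579 and 6594 to 7186 TPM in the iPSC groups, with Pou5f1 at 0 in both MEF libraries, and the 15 fibroblast markers to 26617 to 28213, 1051 to 1109.9 and 718 to 739.7 TPM. Macrophage markers summed to 1252 to 1488 TPM in MEF and 94.6 to 105 and 54.6 to 59.7 TPM in the iPSC groups, and the part of these cell types in the changes was not tested.

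Between the iPSC groups the replication genes went both ways. In CD-iPSC against DMSO-iPSC 14 members were called higher and 7 lower, where 38.6% of all genes were called, 17.9% higher and 20.7% lower. The median change was 0.15, against -0.03 over all genes. The count ranged from 10 to 20 with 1 of the 4 libraries left out, with 11 and 10 called without the first or the second DMSO-iPSC library, and it was 12 with only these 2 groups in the fit.

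Members of one complex parted from each other. In the clamp loader Rfc5 was lower in CD-iPSC, at 53.9 and 50.0 against 110.5 and 110.0 TPM (-1.14 ± 0.16, limma adjusted p = 0.00188), while Rfc1 was higher by 0.38. In the helicase Mcm6 was higher, at 390.0 and 384 against 244 and 228 TPM (0.64 ± 0.09, limma adjusted p = 0.00179), Mcm4 too (0.36 ± 0.09), and Mcm5 lower, at 206 and 183 against 258 and 243 TPM (-0.43 ± 0.10, limma adjusted p = 0.0119). Mcm2, Mcm3 and Mcm7 changed by -0.12 to -0.06 and were not called. Of the activators Cdc45 was higher, at 111 and 102 against 61.1 and 54.4 TPM (0.81 ± 0.11, limma adjusted p = 0.00164), and Mcm10 and Gins4 were lower (-0.53 ± 0.10 and -0.42 ± 0.10). Of the lagging-strand pair Fen1 was lower, at 57.2 and 41.0 against 88.4 and 84.4 TPM (-0.89 ± 0.16, limma adjusted p = 0.00497), and Lig1 higher by 0.45.

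Ccne1 was lower in CD-iPSC, at 138 and 134 against 208 and 217 TPM (-0.71 ± 0.09, limma adjusted p = 0.00116), and Ccne2 was not called (-0.50 ± 0.27, limma adjusted p = 0.178). Pold2, a polymerase delta subunit, led the 5 polymerase genes that were higher, at 179 and 123 against 89.9 and 77.5 TPM (0.75 ± 0.16, limma adjusted p = 0.0101), and the other 4 polymerase and primase genes were not called. Orc6 was higher (0.64 ± 0.09), as were Rpa3 (0.50 ± 0.13), Rrm1 and Rrm2, and Tyms was lower (-0.61 ± 0.15, limma adjusted p = 0.0178). Pcna, Cdt1 and Gmnn changed by -0.12 ± 0.12, 0.24 ± 0.14 and 0.31 ± 0.12, none of them called. For Rfc5, Cdc45, Mcm6, Ccne1, Fen1 and Orc6 the call held in all 12 other settings, and the 2 libraries of each group lay on their own side.

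Of the surrounding genes, 7 of 28 further replication genes were higher in CD-iPSC and 5 lower, with Cdc7, the kinase that fires origins, at 61.7 and 56.0 against 18.8 and 17.0 TPM (1.60 ± 0.13, limma adjusted p = 0.000266). Of 10 further nucleotide supply genes 3 were higher and 2 lower. The chromatin genes had 3 of 10 lower and none higher, with Nasp at 362 and 295 against 485 and 515 TPM (-0.68 ± 0.10, limma adjusted p = 0.00266). Rbl1, the pocket protein p107, was higher (1.75 ± 0.16, limma adjusted p = 0.000391) in an E2F and RB family with 4 higher and 4 lower, and Ccnd1 was lower (-0.90 ± 0.10, limma adjusted p = 0.000781) among G1/S regulators with 6 higher and 5 lower. Of 15 fibroblast markers 9 were lower in CD-iPSC and none higher, of 10 pluripotency markers 7 were lower and 2 higher, and of 10 macrophage markers 5 were lower. The mitochondrial share was 17.4 and 16.2% of TPM in DMSO-iPSC and 8.87 and 14.01% in CD-iPSC. The part of these in the members' changes was not tested.

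The iPSC groups were also compared with R1 embryonic stem cells, and the 2 comparisons share the R1 libraries. DMSO-iPSC had 1 member higher and 4 lower, where 16.5% of all genes were called, 9.31% higher and 7.22% lower. Pole2, at 38.7 and 40.3 against 96.0 and 90.7 TPM, was the largest of them (-1.03 ± 0.12, limma adjusted p = 0.00301), with Prim1, Mcm6 and Rrm1 lower and Mcm5 higher. Any 1 library left out brought that count to 1, and it was 12 as deposited. CD-iPSC had 6 higher and 5 lower, where 22.8% were called, 10.3% higher and 12.5% lower. Rfc5 was lower than in R1 as well, at 53.9 and 50.0 against 132 and 107 TPM (-1.06 ± 0.16, limma adjusted p = 0.00552), and so was Ccne1, at 138 and 134 against 233 and 227 TPM (-0.63 ± 0.09, limma adjusted p = 0.00412). Dut was higher than in R1, at 294 and 276 against 189 and 221 TPM (0.60 ± 0.11, limma adjusted p = 0.0114). Without the first or the second R1 library 2 and 3 members were called instead of 11.

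**Figure D5:**
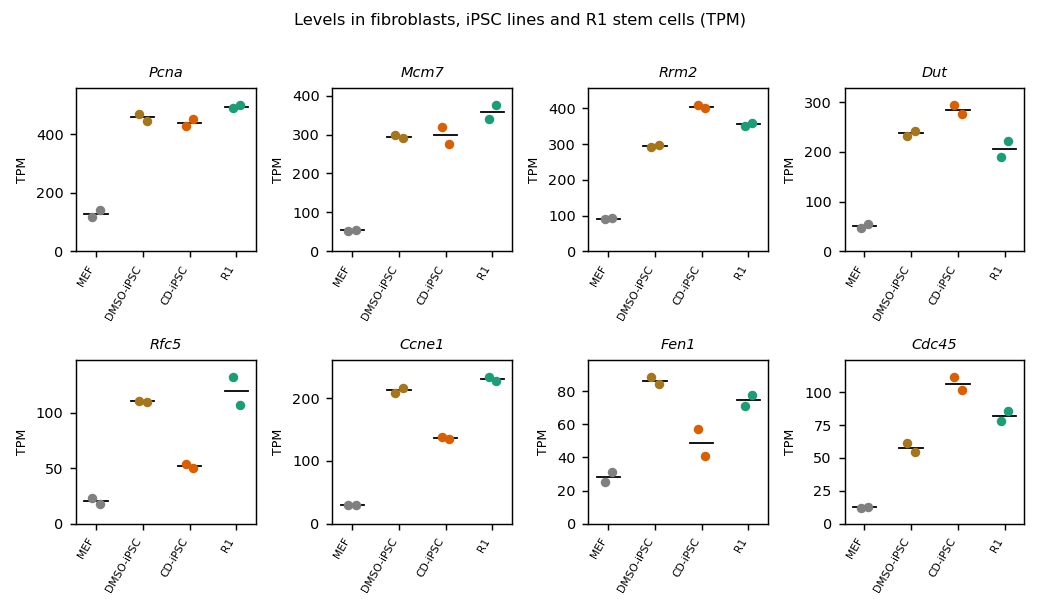
TPM as deposited (vertical axis, from 0) in each library of MEF, DMSO-iPSC, CD-iPSC and R1 for 8 replication genes, with points for libraries (2 per group) and bars for group means. All 8 genes are lowest in MEF; Rfc5 and Ccne1 in CD-iPSC (53.9 and 50.0, and 138 and 134 TPM) lie below DMSO-iPSC and R1, and Cdc45 in CD-iPSC (111 and 102 TPM) lies above both.

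Levels of the members could be ordered within each TPM table. Pcna or Dut was the most abundant member in every group of the reprogramming tables, with Dut first in DMSO (61.9 ± 2.66 TPM, mean ± SD, n = 2), CTR (27.0 ± 2.01), shCTR (141 ± 8.48) and shE3 (176 ± 2.38), and Pcna first with CD (78.4 ± 1.76) and Rxra-OE (128 ± 2.86). In CTR and shCTR the 2 genes were close, at 25.4 ± 0.152 and 136 ± 5.45 TPM for Pcna, within the spread of the libraries. The lowest member was Orc1 in DMSO and MEF, Ccne2 with CD, Cdc6 in CTR, Rxra-OE, shCTR and shE3, and Gins3 in both iPSC groups and R1. Among the MCM2-7 genes, whose proteins form a ring with 1 of each, the highest mean was 1.59 to 3.35 times the lowest, with the widest gap in shE3 and the narrowest in MEF, and Mcm7 was the highest in all groups other than MEF and CD-iPSC, where Mcm6 was.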

How the data were processed

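RNA sequencing of total RNA from 32 mouse libraries was used as 5 tables of 55401 genes, 55141 of them with symbols. Per the submitters' processing notes, fastp 0.20.1, HISAT2 2.1.0, StringTie 2.0 and the mm10 build were used. The authors deposited TPM in 4 tables. In the actinomycin D table the authors deposited a signal, reads scaled to the library's total (RPM), in which at least 99.9922% of values were whole reads within a tolerance of 1e-06. Counting of multi-mapped reads and strand is not given in the sources used here, so reads of near-identical or antisense genes cannot be told apart.

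Each library was divided by its median ratio to the geometric means of the genes, genes at 1 or more in at least 2 libraries were kept, and log2(value + 1) was fitted with limma 3.58.1 in R 4.3.3 (trended eBayes, all groups of a table, Benjamini-Hochberg over all genes, threshold 0.05), after the steps were tested on simulated data. edgeR 4.0.16 and DESeq2 1.42.0 were run on recovered reads as alternatives, beside other scalings, filters, pseudocounts and single libraries left out. Promoters came from RefSeq (GRCm38.p6). Python 3.11.15, numpy 2.4.6, pandas 2.3.3, scipy 1.17.1 and matplotlib 3.10.9 were used.

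The members, lists and tests were chosen with earlier results of these data known. Genes named in the text are Mcm2 to Mcm7, Pcna, Cdt1, Gmnn, Ccne1 and Ccne2, the largest called change of each role, members called against the majority, the smallest p of each further list, members not called where 5 or fewer, and Rxra and Exosc3 in their own tables. For the comparisons under actinomycin D, not every gene of this rule was named. Others were chosen after their values were seen.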

Additional observations from a re-analysis of the deposited data

How the results depend on the processing

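The 3 reprogramming comparisons and the 3 comparisons with MEF kept their counts of called members within 1.5 times under every alternative run. With 1 library left out, the counts ranged from 39 to 41 for CD, 38 to 42 for Rxra-OE, 25 to 31 for shE3, 0 to 34 for CD_0h against DMSO_0h, 0 to 6 for DMSO at 4 h, 8 to 17 for CD at 4 h, 2 to 21 for DMSO at 8 h, 19 to 38 for CD at 8 h, 0 to 0 for the difference of the 8 h changes, 41 to 42 against MEF for DMSO-iPSC, CD-iPSC and R1, 10 to 20 for CD-iPSC against DMSO-iPSC, 1 to 1 for DMSO-iPSC against R1 and 2 to 12 for CD-iPSC against R1. For CD_0h against DMSO_0h the count was 2 without a filter, 11 without the eBayes trend, 0 with spike-in scaling and 0 with only the compared groups in the fit. For DMSO at 4 h it was 5 with quantile normalization, 3 without a filter and 0 with spike-in scaling, and for CD at 4 h it was 9 with only the compared groups. For DMSO at 8 h it was 31 as deposited and 8 without a filter. With only the compared groups it was 12 for CD-iPSC against DMSO-iPSC, 9 for DMSO-iPSC against R1 and 5 for CD-iPSC against R1. Without the trend it was 2 and 7 for DMSO-iPSC and CD-iPSC against R1, and as deposited 12 for DMSO-iPSC against R1. The cause was not tested.

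Replicate numbers are shared between groups, and neither the labels nor the data across a table show that they pair the samples, with correlations of deviations of -0.109 and -0.135 in the CD and Rxra-OE tables, 0.076 in the shE3 table, -0.725 to 0.552 in the actinomycin D table and -0.126 to 0.059 in the iPSC table. The 0.552 is that of CD_0h with DMSO_0h, so a pairing of these 4 libraries was not settled. With the replicate number as a block the count for that comparison was 9 instead of 19, and it was 2 for DMSO-iPSC against R1 and 7 for CD-iPSC against R1, and other counts stayed within 1.5 times.

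Some calls turned direction with the scaling. As deposited, Rpa1 was at 0.45 with Rxra-OE, -0.11 with CD at 4 h and -0.039 with DMSO at 8 h, and Rfc5 at -0.062 with CD at 4 h. With spike-in scaling, Pcna was at -0.10, Pola1 at -0.080, Rfc5 at -0.23 and Rpa1 at -0.27 with CD at 4 h, and Dut at -0.16 and Rpa1 at -0.30 with DMSO at 8 h. Depth limits Cdc6, Gins3 and Orc1 under actinomycin D, which fell to 5, 12 and 14 reads in their lowest libraries, and the depth of the TPM tables is unknown.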
